A study of Haemaphysalis flava with 2 samples.

Results

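ATP-binding cassette (ABC) transporters of the tick midgut were examined in Haemaphysalis flava, a hard tick, at 2 states of blood feeding. The members were the unigenes (assembled transcripts or transcript fragments) whose best-scoring KOG hit names the ABC superfamily. KOG is a catalogue of eukaryotic orthologous groups. This rule used annotation only and gave 122 of the 65535 unigenes of the expression table. Another 20 unigenes met it without a row in that table and were not analysed here. The FE library was made from midguts of fully engorged ticks and the PE library from midguts of partially engorged ticks. Polyadenylated RNA was sequenced, with 1 library per state, and 30 midguts were dissected per state. The sources used here name neither sex, host nor feeding day, nor how many midguts entered a library. Because each state has a single library, replicate error is unknown for every difference below and no test between the states was run.

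ABC proteins bind and split ATP in a conserved nucleotide-binding domain, and most use that energy to move a substrate across a membrane. Subfamilies A and G move mainly lipids and sterols, B and C export drugs, peptides, organic anions and metabolites, and D carries mainly acyl-CoA into peroxisomes. Subfamilies E and F have no membrane domain and act on ribosomes. In ticks, members of B, C and G have been studied for the export of acaricides, and the midgut is where the products of the blood meal, heme and lipid among them, enter the animal. Arthropods also have a subfamily H, which no KOG description here names.

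By KOG description the members fell into 7 subfamilies, whose letters are the usual ones for these entries. There were 47 multidrug resistance-associated proteins (C), 30 lipid exporters of the ABCA1 kind (A), 20 breast cancer resistance protein type transporters (G), 12 members of B, 8 of D, 4 of F and 1 of E. An ABC protein was also named by Nr or UniProt for 116 of the 122. Contig18284 was an exception, placed in subfamily F by KOG but described as the ribosome biogenesis protein Nop58p/Nop5p. Most members were fragments. Their median length was 726 nucleotides (544 for all unigenes), 79 covered under 25% of the KOG entry they matched, and 7 covered at least 80%. Of the 119 members with a Nr hit, 73 shared that best hit with at least 1 other member, so the 122 unigenes may stand for fewer genes and cannot be taken as independent of each other. GO terms for ATP binding were attached to 112 members. Terms for transmembrane transport were attached to 43 members of C, 11 of B and 8 of D, and to 0 members of A and G.

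Levels are the authors' RPKM (reads per kilobase of unigene, scaled to the size of the library), which allow levels to be compared between unigenes. In a sum of RPKM, a transcript assembled as several fragments counts once for each fragment. Summed levels of subfamilies therefore also depend on how fragmented their unigenes are. The listed reads came to 35944321 in FE against 43831353 in PE. Calls of higher or lower in FE followed a rule of size, with no test. It asked for a log2 of (FE RPKM + 1)/(PE RPKM + 1), the log2 ratio below, of 1 or more in size, and the added 1 makes the ratios of scarce unigenes look smaller. The 95% counting interval of the ratio of reads had to exclude 1, and 1 RPKM had to be reached in a library. Folds in the text are RPKM ratios without the added 1, with that interval in brackets. It covers counting error only.

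The library labelled midgut held transcripts of midgut enzymes in both states, among them cathepsin B (Contig5046, 569 RPKM in FE against 829 in PE). The 36 unigenes described by midgut words (cathepsin, legumain, longipain, midgut serine protease, peritrophic) summed to 1839 RPKM in FE against 3568 in PE. Unigenes of other tissues were present too and moved between the libraries. The 96 with salivary or cement words in their descriptions, which name a protein family more than a tissue, summed to 6238 and 20162 RPKM, the 64 muscle unigenes to 3599 and 4460, the 30 nerve unigenes to 74.9 and 39.0, and the 3 ovary unigenes to 342 and 154. Calls by the rule of size did not all follow these sums. Of 33 midgut unigenes tested 12 were higher in FE and 14 lower. Of 84 salivary ones 33 were higher and 25 lower, and 1 unigene held 45.7% of their PE sum. Muscle had 7 of 50 higher and 5 lower, nerve 12 of 22 and 0, and ovary 1 of 3 and 0. Over all unigenes tested 25.7% were higher and 11.1% lower. None of the listed unigenes was at 0 reads in FE, and in PE 4 midgut, 6 salivary and 5 nerve unigenes were. Their part in the values below was not tested. In a whole midgut, fewer cells of a type and less RNA per cell cannot be told apart.

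ABC unigenes stood lower in the FE library in subfamily G and in the P-glycoprotein entry of subfamily B. The 4 members of C averaging at least 100 RPKM also stood lower, and 3 of them were called. These 4 lay inside the 10th to 90th percentile of all unigenes at their level. By contrast, the 3 most abundant members of E and F, which act on ribosomes, had the higher level in FE. Of the 93 members that reached 1 RPKM in a library, 27 were lower in FE, 12 were higher and 54 were neither. Over all unigenes tested the rule called 11.1% lower and 25.7% higher. Among the 11441 tested unigenes with a KOG hit it called 8.55% lower and 31.2% higher, with a median log2 ratio of 0.51. The members' median log2 ratio was -0.28, beside 0.36 for all unigenes, a difference of -0.64. The summed level of the 122 members was 1572 RPKM in FE against 2289 in PE, a 1.46-fold higher PE level. The 29 members under 1 RPKM in both libraries were not tested, and 17 of them were lipid exporters of subfamily A.

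**Figure D1:**
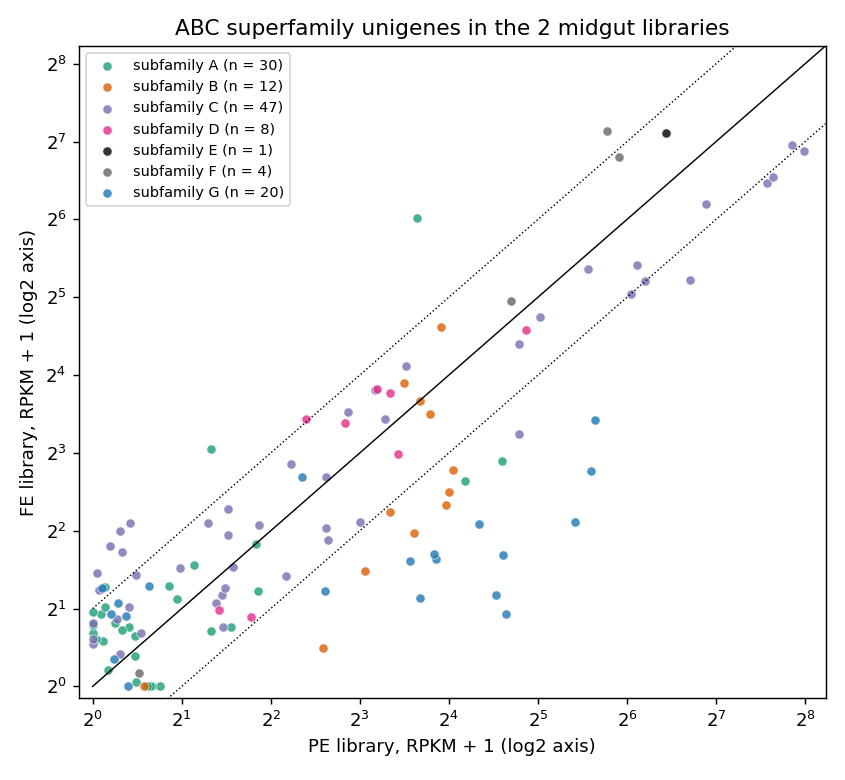
Level of each of the 122 ABC unigenes in the PE library (x axis) and the FE library (y axis), as RPKM + 1 on log2 axes, coloured by subfamily. The solid line marks equal levels and the dotted lines a 2-fold difference. The 12 points of subfamily G with a PE level above 5 RPKM lie below the lower dotted line, and the most abundant points of subfamily C lie near the lower dotted line.

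The sign of the median and of the summed difference over all members depended on 26 of them. Without these 26, which lie on the 2 most shared Nr hits described below, 11 of 68 tested were lower (16.2%) and 12 higher (17.6%). Over all unigenes tested 11.1% were lower and 25.7% higher. The median log2 ratio was then 0.29, beside 0.36 for all unigenes, and the summed levels were 998 RPKM in FE against 959 in PE. These 26 members were set apart after their values were seen. The scaling of the libraries moved the calls too. A TMM factor, which aligns the bulk of the unigenes, came to 0.39 on the log2 scale, and with it 36 members were lower and 10 higher, against 15.6% and 18.3% of all unigenes. This factor lowers the log2 ratios, so with it a lower call cannot be lost and a higher call cannot be gained. The 27 lower calls therefore stayed, 9 were added and 2 higher calls were lost.

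**Figure D2:**
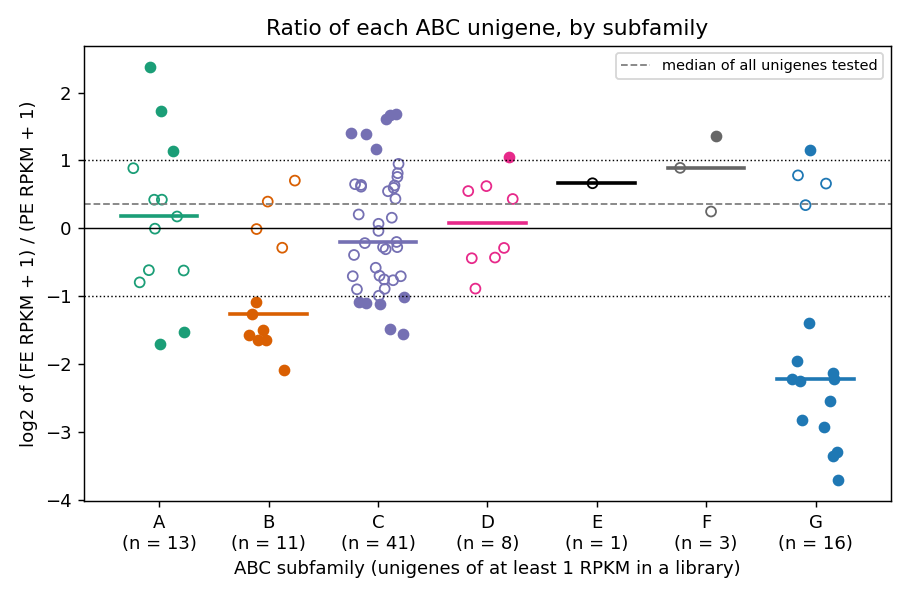
Log2 ratio of FE over PE (RPKM + 1) for each ABC unigene that reached 1 RPKM in a library, by subfamily. Filled points are called by the rule of size, open points are not, thick bars are subfamily medians and the dashed line is the median of all unigenes tested, 0.36. The lower calls of G run from -1.39 to -3.72, those of B from -1.09 to -2.09, and C has called points on both sides.

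Subfamily G, the breast cancer resistance protein type, showed the widest separation. The summed level of its 20 unigenes was 46.8 RPKM in FE against 287 in PE, a 6.13-fold higher PE level. Of 16 tested, 12 were lower in FE, 1 higher and 3 neither, and the median log2 ratio was -2.22. The 12 lower unigenes had 0.904 to 9.70 RPKM in FE and 5.12 to 48.9 in PE. The most abundant, Contig11302, had 9.70 RPKM in FE against 48.9 in PE, a 5.05-fold higher PE level (4.66 to 5.47). Contig12306 had 5.80 and 47.2 RPKM and was 8.14-fold higher in PE (6.66 to 10.1). The lowest ratio of all members belonged to Contig41695, with 0.904 RPKM in FE against 24.0 in PE, a 26.6-fold higher PE level (16.2 to 46.8). Every one of these was low in FE and well covered in PE, where the 3 had 4339, 1040 and 517 reads.

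Of the 12 lower members of G, 11 had the same best Nr hit, a partial ABC transporter of the tick Ixodes scapularis with 572 residues, and together they covered 570 of them. All 11 were called lower, from a log2 ratio of -1.39 (Contig60265) to -3.72 (Contig41695), and their reads summed over the 11 were 6.77-fold higher in PE (6.40 to 7.16). They were not simply end-to-end pieces of 1 transcript. On the protein 24 of the 55 pairs overlapped, and up to 5 unigenes lay over 1 residue. Contig41695 and Contig41519 both matched residues 183 to 273 at 89.0% identity, yet Contig41695 was 26.6-fold and Contig41519 5.93-fold higher in PE (4.56 to 7.83). Copies of a gene, alleles and splice forms cannot be told apart in these files, and reads of near-identical unigenes may have been split between them. Of the others on this protein, Contig40506 had 1.25 and 22.1 RPKM and was 17.6-fold higher in PE (12.7 to 25.2), and Contig27416 had 2.21 and 23.4 RPKM and was 10.6-fold higher (9.11 to 12.4). Contig46727 had 1.19 and 11.8 RPKM, Contig40507 had 2.25 and 13.3 RPKM and Contig49612 had 2.12 and 13.5 RPKM. The remaining lower member, Contig47538, had another Nr hit and 3.34 RPKM in FE against 41.6 in PE, a 12.5-fold higher PE level (9.84 to 16.0).

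The other 8 members of G were scarce, and 0 of them were called lower. None exceeded 5.45 RPKM in FE or 4.09 in PE, the levels of Contig4163, which stood 1.33-fold higher in FE (1.19 to 1.49) and was called neither. Contig54011 was the single higher call, with 30 reads in FE against 2 in PE (1.40 and 0.0769 RPKM), 18.2-fold (4.63 to 158). It covered 8.65% of the G entry and shared its best Nr hit with a unigene placed in subfamily A, so its place in G is uncertain.

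**Figure D3:**
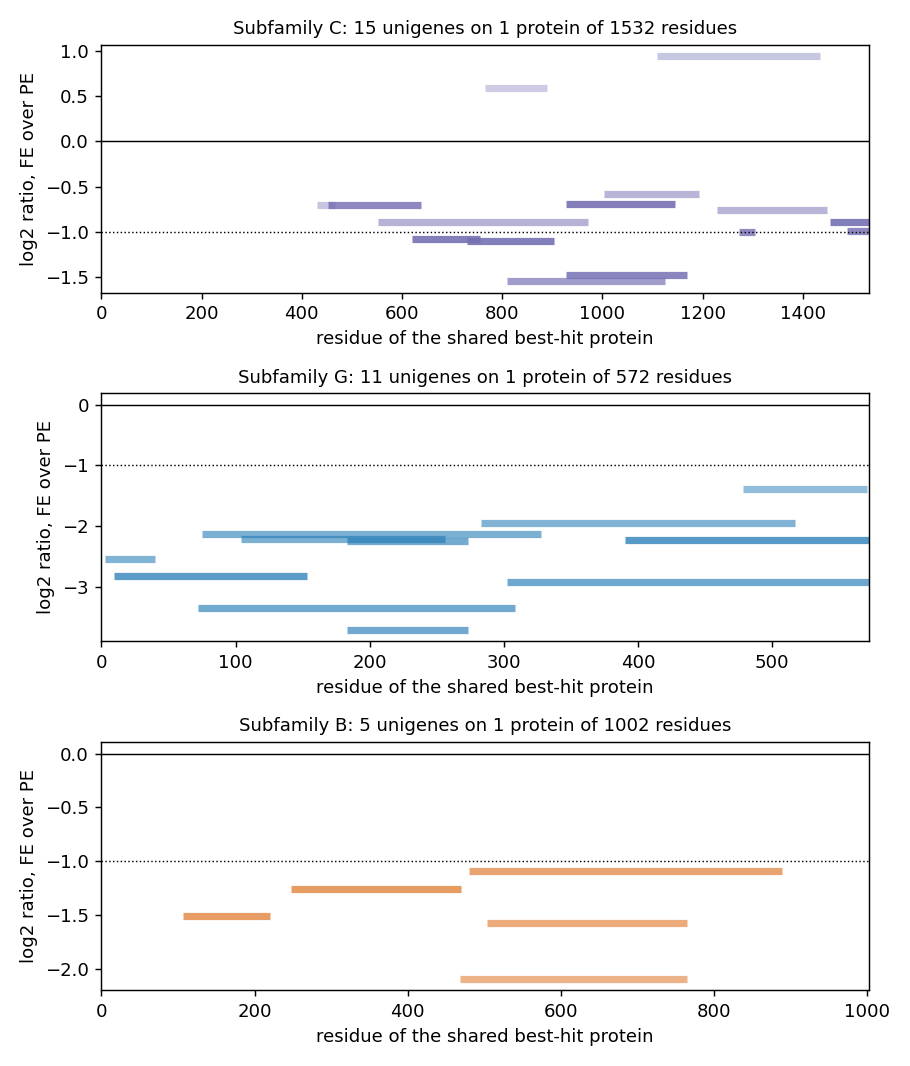
Log2 ratio of FE over PE (y axis) for the unigenes that share 1 best Nr hit, each drawn as a bar over the residues of the hit that it matched (x axis), darker where its mean level is higher. The panels show 15 unigenes of C, 11 of G and 5 of B. All bars of G and B lie below the dotted line at -1, while the bars of C spread from -1.55 to 0.95.

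Subfamily B holds the multidrug resistance proteins related to P-glycoprotein, exporters of hydrophobic drugs at the cell surface, and transporters of mitochondria and other organelles, and these differed in the data. Of the 8 multidrug or pheromone exporters, the KOG entry of P-glycoprotein, 7 were tested and all 7 were lower in FE, with a median log2 ratio of -1.57. Their summed level, with that of the untested unigene, was 23.4 RPKM in FE against 78.3 in PE, a 3.34-fold higher PE level. Contig30496 had 5.89 RPKM in FE against 15.5 in PE, a 2.62-fold higher PE level (2.21 to 3.12). Contig37256 had the lowest ratio, with 0.412 and 5.01 RPKM, 12.2-fold higher in PE (7.22 to 22.1). Between them stood Contig36787, at 4.02 and 14.7 RPKM and 3.65-fold higher in PE (2.85 to 4.72), and Contig42236, at 4.66 and 15.04 RPKM. The smallest difference of the 7 was that of Contig34126, at 3.74 and 9.09 RPKM and 2.43-fold higher in PE (2.06 to 2.87). Again the unigenes were related. On 1 hit, a putative multidrug resistance protein of Ixodes scapularis with 1002 residues, lay 5 of the 7, over 757 residues in all, and their summed reads were 3.06-fold higher in PE (2.77 to 3.39). The eighth unigene, Contig78999, had 0 reads in FE against 10 in PE, and its Nr hit was of subfamily A.

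The 4 organelle members of B were all called neither. The HMT1 type unigene Contig22326, whose KOG entry is named for a heavy metal exporter, had 10.3 and 12.8 RPKM. Contig10655 was described in UniProt as an ABCB10 transporter, a protein that in the cattle tick Rhipicephalus microplus has been linked to the movement of heme into storage bodies of midgut digest cells. It had 23.6 RPKM in FE against 14.1 in PE, a 1.67-fold higher FE level (1.57 to 1.78). Contig14860, of the same peptide exporter entry, had 13.9 and 10.3 RPKM. These 4 covered at least 80% of their KOG entries, unlike the fragments of the P-glycoprotein entry, which covered 33.3% or less.

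Subfamily C, the multidrug resistance-associated proteins that export organic anions and glutathione conjugates, held most of the summed level of the ABC unigenes. Its 47 unigenes summed to 846 RPKM in FE against 1511 in PE, a 1.79-fold higher PE level. Of 41 tested, 6 were lower in FE, 6 higher and 29 neither, and the median log2 ratio was -0.20. The balance of calls depended on the settings, with 13 lower and 6 higher under a TMM factor and 0 lower and 3 higher at a fold of 3. With 1 unigene per protein hit, 1 of 21 tested was lower and 3 higher. Of all unigenes 11.1% were lower and 25.7% higher by the main rule. These shares were 15.6% and 18.3% with the TMM factor, and 5.26% and 11.8% at a fold of 3. Lower and higher calls lay at different levels. The 6 lower members had 26.7 to 253 RPKM in PE and were 2.04-fold to 3.16-fold higher there, whereas the 6 higher members had 1.36 to 3.27 RPKM in FE and at most 0.342 in PE.

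The most abundant ABC unigene of the PE library was Contig2534, described as multidrug resistance-associated protein 1, with 116 RPKM in FE against 253 in PE, a 2.17-fold higher PE level (2.09 to 2.25). Contig4577 had 92.6 and 198 RPKM and was 2.14-fold higher in PE (2.02 to 2.26), and Contig8815 had 123 and 230 RPKM and was 1.87-fold higher (1.78 to 1.96), short of the rule. The lowest ratios were those of Contig10757, with 8.45 RPKM in FE against 26.7 in PE, a 3.16-fold higher PE level (2.80 to 3.57), and Contig15108, with 36.3 and 103 RPKM, 2.85-fold higher (2.66 to 3.05). With a TMM factor Contig8815 was called lower as well.

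A single putative ABC transporter of Ixodes scapularis, of 1532 residues, was the best hit of 15 members of C, among them all those just named apart from Contig2534. These 15 held 64.1% of the summed level of C in FE and 72.2% in PE. Of 14 tested, 5 were lower and 9 neither, and 11 were lower with a TMM factor. Their summed reads were 2.03-fold higher in PE (1.99 to 2.08), and 13 of the 15 had the higher level in PE. As in G they overlapped: 27 of 105 pairs did, with up to 5 unigenes over 1 residue and identities from 55.3% to 88.6%. Of the other 27 tested members of C, 1 was lower, 6 higher and 20 neither, and the median log2 ratio was 0.55. Among these Contig20849, whose Nr hit is a canalicular organic anion transporter, had 13.0 and 8.004 RPKM, and Contig7983 had 10.5 and 6.32 RPKM, 1.66-fold higher in FE (1.48 to 1.86).

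The higher members of C were scarce, with 1 to 53 reads in PE. Second_Contig43, a unigene of 4375 nucleotides, had 545 reads in FE against 53 in PE, or 3.01 and 0.240 RPKM, 12.5-fold higher in FE (9.42 to 16.9). It shared its best hit, of 1112 residues, with Contig42475 and Contig42264, which were 17.3-fold (6.41 to 65.8) and 8.94-fold (5.37 to 15.8) higher in FE. Summed over the 3 the reads were 12.0-fold higher in FE (9.40 to 15.4). Contig60074 had 41 reads in FE against 1 in PE, a ratio of 49.9 with a counting interval from 8.46 to 2017, and Contig69378 had 21 and 1, a ratio of 25.5 (4.11 to 1056). Contig68086 had 3.27 and 0.342 RPKM. All 6 were called higher with a TMM factor too, and 0 of them with a pseudocount of 5 RPKM.

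**Figure D4:**
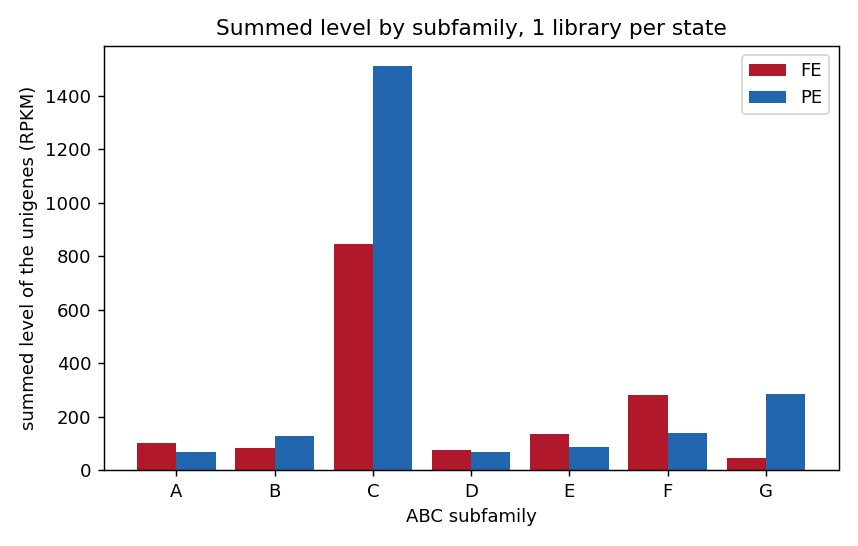
Summed RPKM of the unigenes of each ABC subfamily in the FE and PE libraries, 1 library per state. Subfamily C holds most of the summed level in both, with 846 RPKM in FE against 1511 in PE, and G has the largest relative difference, with 46.8 and 287 RPKM. The sums count fragments of 1 transcript separately. A, D, E and F sum higher in FE.

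Subfamily A, whose vertebrate member ABCA1 hands cholesterol and phospholipid to lipoproteins, was mostly at trace level, and its few abundant members went opposite ways. Of 30 unigenes 13 were tested, with 3 higher in FE (23.1%), 2 lower (15.4%) and 8 neither. These shares were near the 25.7% higher and 11.1% lower of all unigenes. The median log2 ratio was 0.17, beside 0.36 for all unigenes. Contig3642, described as lipid exporter ABCA1, had 64.0 RPKM in FE against 11.5 in PE, a 5.58-fold higher FE level (5.08 to 6.15). This unigene alone made up 62.3% of the summed level of A in FE and 16.4% in PE, and A summed to 103 and 69.8 RPKM. Contig4593 had 7.32 and 1.51 RPKM and was 4.85-fold higher in FE (4.27 to 5.52). In the other direction Contig29761 had 6.46 RPKM in FE against 23.3 in PE, a 3.60-fold higher PE level (3.03 to 4.31), and Contig18625, a unigene of 3012 nucleotides, had 5.25 and 17.1 RPKM, 3.26-fold higher in PE (2.99 to 3.56). Lower calls and higher calls in A fell on different Nr hits, 2 and 3 of them.

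Subfamily D brings long-chain and very long-chain acyl-CoA into peroxisomes for breakdown, and its 8 unigenes were all tested. They were close to even, with a summed level of 76.7 RPKM in FE against 69.7 in PE, 1 called higher, 0 lower and 7 neither. With a TMM factor that call was lost and the counts were 0 higher and 1 lower. Contig3874, described as ABCD3, was the most abundant, with 22.9 and 28.2 RPKM, 1.23-fold higher in PE (1.17 to 1.30). Of the peroxisomal acyl-CoA transporter entry, Contig6703 had 13.1 and 8.15 RPKM and First_Contig1446 had 9.46 and 6.15 RPKM, both called neither. Contig12709, of the other acyl-CoA transporter entry, had 12.7 and 9.13 RPKM. Contig25730, of that entry too and described in UniProt as sub-family D member 4, had 6.93 and 9.76 RPKM.

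Among the most abundant ABC unigenes of the FE library were those that act on ribosomes. Contig1116, described as ABCF1 (ABC50), which binds the initiation factor eIF2 and aids translation initiation, had 140 RPKM in FE against 53.9 in PE, a 2.59-fold higher FE level (2.52 to 2.67). It was called higher, a call lost with a TMM factor, where its log2 ratio was 0.97. Contig1569, described as ABCE1, which splits ribosomes for reuse after termination, had 137 and 86.0 RPKM, 1.59-fold higher in FE (1.55 to 1.63). Contig863, of the predicted transporter entry of subfamily F, had 110 and 59.0 RPKM, 1.87-fold higher in FE (1.81 to 1.93). The last pair were called neither. Their log2 ratios of 0.66 and 0.89 stood 0.30 and 0.53 above the median of all unigenes. The median of unigenes with a KOG hit was closer to them, at 0.51. In the same subfamily Contig18284, the Nop58p-like unigene, had 29.9 and 25 RPKM, and Contig77971 had 2 reads in FE against 8 in PE.

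**Figure D5:**
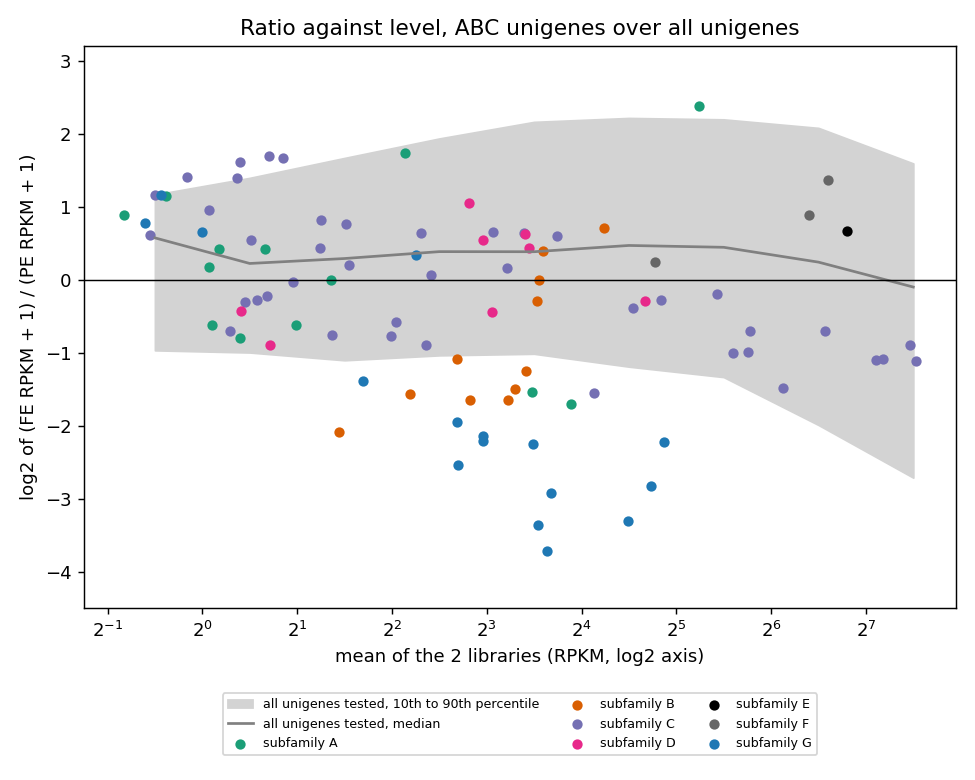
Log2 ratio of FE over PE (y axis) against the mean RPKM of both libraries (x axis, log2) for the ABC unigenes that were tested, over the median (line) and the 10th to 90th percentile (grey band) of all unigenes tested. The 12 lower members of G and the 7 of B lie below the band, and the 4 members with the highest mean level, all of C, lie inside it with a median of -1.10.

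Calls differed by level within the list. Among 37 members averaging 10 RPKM or more over both libraries, 16 were lower in FE and 2 higher, against 1611 and 3620 of 11954 unigenes of that level. Of the 56 tested members under 10 RPKM, 11 (19.6%) were lower and 10 (17.9%) higher, against 10.2% and 24.0% of all unigenes tested at that level. In the lower group 0 of 27 stayed under 5 RPKM in both libraries, and in the higher group 8 of 12 did. The same count was not made over all unigenes, so no background share stands beside it.

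The authors' deposited table also compares the libraries, by a test which the sources used here do not name and which speaks of these 2 libraries only. At a false discovery rate under 0.05 the authors' deposited table put 15 members lower in FE and 4 higher, beside 2.22% and 5.75% of all unigenes. The lower ones in the authors' deposited table were 7 of G, 7 of C, 1 of A and 0 of B, and the higher ones were Contig3642, Contig1116, Contig1569 and Contig863. The authors' deposited table gave the lowest rate of the members to Contig2534, at 2.26e-09, and a rate of 3.12e-05 to Contig41695.

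Other genes of the routes in which ABC proteins take part were listed by words in their descriptions, without the members. Cytochrome P450s, which oxidise foreign compounds ahead of export, had 34 of 221 tested higher, 86 lower and a median log2 ratio of -0.68. Sulfotransferases and glutathione S-transferases make the conjugates that subfamily C carries. The former had 27 of 111 higher and 39 lower (median -0.22), and the latter had 10 of 34 higher and 7 lower (median -0.11). For subfamily D, acyl-CoA oxidases and synthetases had 21 of 80 higher and 29 lower (median 0.05), and peroxins, which build peroxisomes, had 2 of 6 higher and 0 lower (median 0.77). Each of these medians is to be read against 0.36 for all unigenes, and each count against 25.7% higher and 11.1% lower.

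For the mitochondrial members, the 2 heme synthesis unigenes, both ferrochelatases, were called neither, and iron-sulfur cluster assembly had 2 of 4 higher and 0 lower, with frataxin (Contig28293) at 41.3 RPKM in FE against 16.5 in PE. Translation factors, the partners of E and F, had 22 of 96 higher (22.9%) and 4 lower (median 0.30). The counts and medians here are likewise to be read against 25.7% higher, 11.1% lower and 0.36 for all unigenes. Hemelipoglycoproteins, vitellogenins and apolipoproteins, carriers of lipid and heme, had 7 of 20 higher and 7 lower (median -0.08). Among other pumps driven by ATP, the vacuolar ATPase had 3 of 13 higher and 0 lower (median 0.69), and cation ATPases had 1 of 12 higher and 2 lower (median 0.25), among the latter a sodium/potassium ATPase subunit (Contig3845) with 96.2 RPKM in FE against 409 in PE.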

How the data were processed

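Total RNA came from Haemaphysalis flava midguts by Trizol extraction, and TruSeq RNA libraries were built from it, per the labels' protocols. The submitters' processing notes name CASAVA 1.8. Assembler, aligner, counting and search tools: not given in the sources used here. The authors deposited whole read counts per unigene and RPKM values, per the file headers. Counts, RPKM and length imply 41432770 FE reads and 50397332 PE reads, of which the table lists 86.8% and 87.0%. The authors deposited the fold (ratio of PE over FE RPKM), p-value and false discovery rate of their own comparison, and a score and percent identity for each KOG, Nr and UniProt hit. Unigene lengths and hit positions were also deposited.

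Members and lists were chosen with earlier results of these data known. Members took the KOG hit with the highest score. Intervals of ratios were exact (Clopper-Pearson, conditional binomial, 95%), used the implied totals and cover counting error only. No test between states was run, since there was 1 library each. The TMM factor came from edgeR 4.0.16, and other steps used Python 3.11.15 with scipy 1.17.1. Named members were, per KOG entry, the 3 most abundant, the 2 highest and 2 lowest ratios at 5 RPKM or more, and the 10 highest and 10 lowest overall. Contig78999 and unigenes that are not members were named after their values were seen. The alternatives covered the pseudocount, filter, scaling, fold and choice of members. No sequences of the unigenes were used here. The single values of 2 members covered by the naming rule are not reported here; both stay in the counts and sums.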

Additional observations from a re-analysis of the deposited data

How the results depend on the processing

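The number of members lower in FE (27 of 93 tested) moved by more than 1.5 times under 3 alternatives. It was 15 of 93 with a fold of 3 and 8 of 51 with 1 unigene per best protein hit. Without the members on the most shared Nr hits it was 11 of 68, an alternative chosen after seeing the data. For the last 2 the share of all unigenes called lower stayed at 11.1%. The number higher (12 of 93) was 19 with a pseudocount of 0.1 RPKM, 2 with one of 5 RPKM and 4 of 60 tested with a filter at 5 RPKM. It was 27 with a fold of 1.5, 5 with a fold of 3 and 7 of 51 tested with 1 unigene per hit. The share of all unigenes called higher moved too, from 25.7% to 34.7%, 10.5%, 32.3%, 40.5% and 11.8% at the first 5 of these settings. With a fold of 3 the share of all unigenes called lower was 5.26%, beside 11.1%. The members' median log2 ratio (-0.28) turned positive with 1 unigene per hit (0.34) and without the most shared hits (0.29), and was -0.83 with a filter at 5 RPKM. The log2 ratio of the summed levels (-0.54) also turned under those (0.054 and 0.057). It was -0.58 with the filter at 5 RPKM, -0.94 with a TMM factor, -0.90 and -0.75 when centred on all or on well expressed unigenes, -0.36 for unigenes of at least 500 nucleotides and -0.51 with any KOG hit to the superfamily. The cause of these moves was not tested. Of the 50 named members 33 were called, 20 with a pseudocount of 5 RPKM and 18 with a fold of 3. The 9 alternatives run on the named members could not turn the direction of a called member, so they do not bear on direction. Pseudocount, filter and fold leave the sign of a ratio unchanged. The largest scaling factor was 0.39 on the log2 scale, short of the 1 that a call needs. No paired analysis was possible because each state has 1 library. Depth limits the scarce members: 29 of 122 were under 1 RPKM, and 3 reads equal 0.0724 RPKM in FE and 0.0595 in PE for a unigene of 1 kilobase.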

Other observations

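Reads in 1 library only were found for 12 of the 122 members, all under 1 RPKM and outside the rule of size. Over all 65535 unigenes, 1172 were at 0 reads in FE and 1866 in PE. Of the 12 members, 6 had reads in PE alone: Contig77441, Contig79645, Contig79030 and Contig78809 of subfamily A, Contig78999 placed in B and Contig79869 placed in G. The other 6 had reads in FE alone: Contig46591, Contig53880 and Contig24985 of A, and Contig45473, Contig73332 and Contig32447 of C. Contig32447 had 27 reads and Contig24985 had 22 in FE, and the 95% counting intervals of their ratios of FE over PE began at 8.31 and 6.66. Contig77441 had 15 reads in PE, and its interval of PE over FE began at 2.95. These members were named after their values were seen.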
